A study of Homo sapiens with 12 samples.

Results

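The transcripts described here are those of 6 genes of the RAF, MEK and ERK kinase cascade: ARAF, BRAF, KSR1, MAP2K1, MAP2K2 and MAPK3. They were chosen by gene symbol from a table of read counts for 60603 genes, and 6 of 6 were among the 17775 genes with enough reads to be tested. They were measured by poly(A) RNA-seq in T24, an established human bladder carcinoma line, in 12 libraries of 4 groups with 3 libraries each. The groups were T24 of genotype WT without treatment, WT with 5-Ad-IAA, NS1 without treatment, and NS1 with 5-Ad-IAA. The series is about AlissAID, a degradation system for proteins that carry no tag, in which an auxin derivative such as 5-Ad-IAA serves as the inducer. The labels do not spell out NS1, which is also the name of a synthetic binder of HRAS, and they give no dose or time of the inducer. What the WT cells carry, whether the NS1 line is 1 clone, and whether replicates were separate cultures are also not given, so p-values measure the spread between these libraries, which may be technical.

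In this cascade, active RAS at the membrane recruits RAF kinases, which phosphorylate the MEK kinases, which in turn phosphorylate ERK. KSR proteins resemble RAF and hold RAF, MEK and ERK together as a scaffold. The cascade is controlled mainly by phosphorylation of its proteins, which RNA-seq does not measure, and RAS mutations that feed it occur in bladder carcinoma.

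KSR1, MAP2K1, MAP2K2 and MAPK3 were called over all 12 libraries in the main test or in the paired test of the inducer described below, and the sequence just before their start sites is printed to show what the members with unequal changes carry there. Each stretch is the longest run outside annotated exons within the 250 bases before the RefSeq start site nearest the annotated gene start (GRCh38.p14), written 5′ to 3′ along the gene. Capitals mark matches on either strand to an E-box (CACGTG), a GC box (GGGCGG or CCGCCC), the core of the cyclic AMP response element (CRE core, TGACG or CGTCA) or an ETS core (CCGGAA or TTCCGG).
KSR1 (chr17:27456198-27456447, plus strand): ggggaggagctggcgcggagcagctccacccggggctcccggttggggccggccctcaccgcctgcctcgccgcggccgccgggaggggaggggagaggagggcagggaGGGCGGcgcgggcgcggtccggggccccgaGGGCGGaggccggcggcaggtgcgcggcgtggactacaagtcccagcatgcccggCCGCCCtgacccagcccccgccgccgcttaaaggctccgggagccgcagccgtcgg
MAP2K1 (chr15:66386747-66386816, plus strand): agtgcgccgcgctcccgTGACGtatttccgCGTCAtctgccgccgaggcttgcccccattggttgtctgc
MAP2K2 (chr19:4124130-4124372, minus strand): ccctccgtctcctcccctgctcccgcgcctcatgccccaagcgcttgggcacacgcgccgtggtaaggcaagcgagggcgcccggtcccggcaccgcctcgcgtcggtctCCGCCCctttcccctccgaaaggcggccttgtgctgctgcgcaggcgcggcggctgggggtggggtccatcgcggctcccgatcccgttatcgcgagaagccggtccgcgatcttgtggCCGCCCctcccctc
MAPK3 (chr16:30123310-30123470, minus strand): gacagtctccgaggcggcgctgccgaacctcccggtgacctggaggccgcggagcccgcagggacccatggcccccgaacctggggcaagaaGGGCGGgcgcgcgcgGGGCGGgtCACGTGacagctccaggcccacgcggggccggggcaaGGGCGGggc

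Over the full 250 bases, MAPK3 held 1 E-box and 6 GC boxes, with some of the GC boxes inside an annotated exon of MAPK3. MAP2K1 held 3 GC boxes and 2 CRE cores, and its window also takes in an exon of TIPIN, the neighbouring gene, and part of an exon of its own. KSR1 held 3 GC boxes and MAP2K2 held 2. RefSeq lists further start sites inside KSR1, MAP2K1 and MAP2K2, and the windows before those held none of the 4 motifs. Among 34943 windows of this length, 6.32% held the E-box, 42.5% the GC box, 21.2% the CRE core and 14.5% the ETS core, and no bases were shared between motifs in the members' windows. These are matches of letters and no binding was measured.

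Library totals ran from 10593934 to 20266996 counts, and replicate 1 was the deepest library of its group in all 4 groups. Replicate 1 stood apart from the other libraries. The chi-square per degree of freedom between counts was 17.6 to 30.6 for the pairs with replicate 1. For replicates 2 and 3 it was 18.2 in WT untreated and 3.03 to 5.46 in the other groups. The labels name no batch. Levels are in CPM (read counts scaled to the library total after TMM adjustment). Of 17 urothelial and epithelial markers, KRT7, KRT8, KRT18, KRT19, GATA3, PPARG and FOXA1 had means of 36.3 to 3061 CPM over the 12 libraries. ELF3 (4.81 CPM), EPCAM (2.09) and UPK2 (1.75) were low. KRT20, UPK1A, UPK1B and CDH1 had means of 0.015 to 0.115 CPM, and KRT5, UPK3A and TP63 had 0 counts. The summed level of 5 fibroblast markers was 8.25 to 21.6 CPM in NS1 with inducer and 2.47 to 7.72 CPM in the other groups. In each group 3 of the 5 were under 1 CPM. Of 4 blood markers, CD68 was at 7.77 to 23.6 CPM and 3 were under 1 CPM in each group. Mitochondrial genes took 0.808 to 1.5% of counts in NS1 libraries and 1.27 to 2.84% in WT libraries. The part of these differences in the results below was not tested.

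MAP2K2 was the most abundant member for its length and KSR1 the least. Divided by the length of the principal transcript, the mean over 12 libraries was 87.9 CPM per kilobase for MAP2K2, 36.5 for MAPK3, 29 for MAP2K1, 21.3 for ARAF, 2.26 for BRAF and 1 for KSR1. The ranges over libraries overlapped between MAPK3 (26.2 to 44) and MAP2K1 (19.1 to 35.4), and between MAP2K1 and ARAF (18.7 to 25.8). With the length of all exons of a gene in place of the principal transcript, MAP2K1 (26.3 CPM per kilobase) came close to MAP2K2 (29.1) and above MAPK3 (18.5). BRAF and KSR1 then stood at 0.624 and 0.494, with overlapping ranges. The gap between BRAF and KSR1 on one side and the other members on the other was present with either length.

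**Figure D1:**
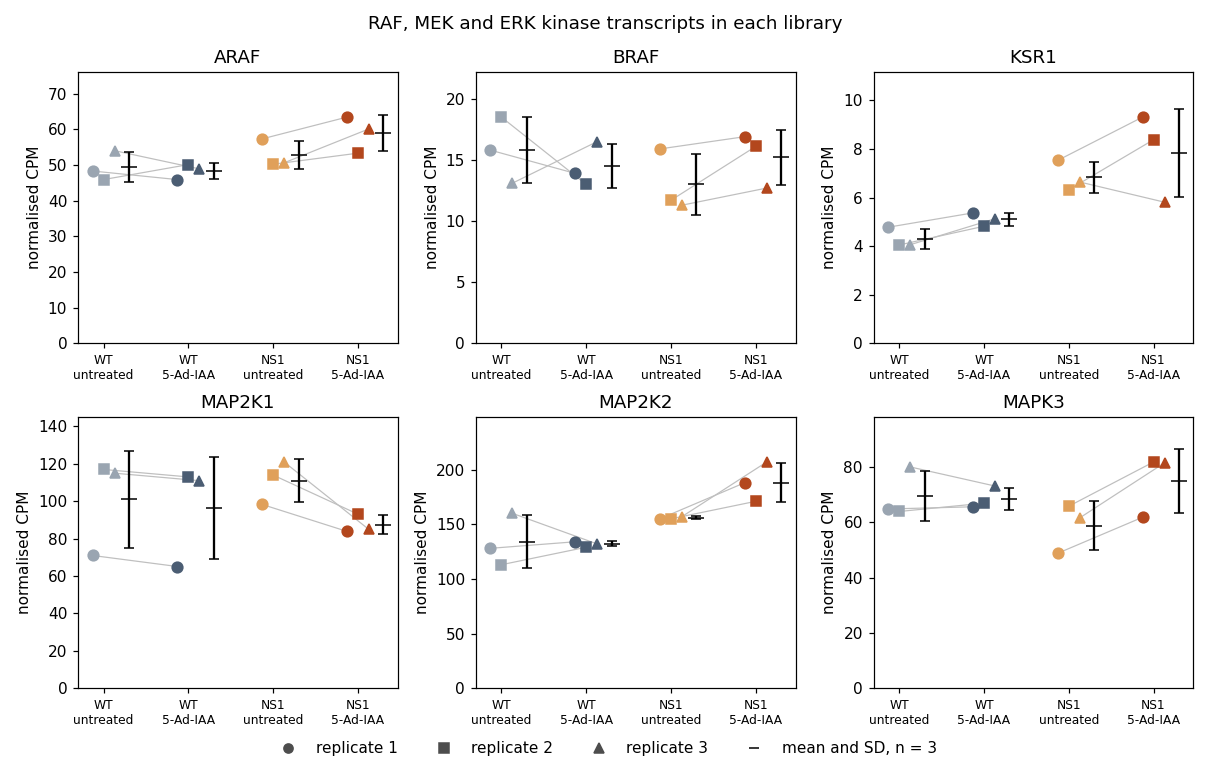
Normalised CPM of each member (y axis, from 0, own scale per gene) in the 4 groups (x axis), 1 point per library with the symbol giving the replicate number, grey lines joining equal numbers within a line, and bars for mean and SD (n = 3). KSR1 was higher in every NS1 library (5.81 to 9.31) than in any WT library (4.05 to 5.37), and MAP2K1 was lowest in replicate 1 of each group.

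The main test was edgeR's quasi-likelihood test over the 12 libraries, without a term for replicate number. With the inducer in NS1 cells it called 0 of 6 members at an adjusted p under 0.05, where 6.15% of all genes tested were called. An unadjusted p under 0.05 was found for 2 of 6 members and for 3689 of the 17775 genes. DESeq2 also called 0 members, and the shares of all genes that DESeq2 called are not given here. Within a line the replicate numbers were taken to pair the libraries, because treated and untreated libraries of the same number deviated together from their group means. Libraries of unequal number were not compared in this way. As replicate 1 stood apart in every group, the pairing of numbers 2 and 3 was not tested. A fit with a block for each same-numbered pair (the within-line block) called 3 of 6 members, where 25.9% of all genes were called. MAPK3 and MAP2K2 rose and MAP2K1 fell. A block for the number alone called MAPK3 only, where 13.6% of all genes were called. The members' median log2 fold change was 0.22 in both the main and the within-line fit, against 0.006 and 0.005 over all genes. Regardless of sign, the members' median was 0.252 and 0.249 in these fits, against 0.197 over all genes in each.

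ARAF encodes a RAF kinase of low basal activity. It stood at 48.3, 45.9 and 54 CPM in WT untreated (replicates 1 to 3), 45.9, 50.1 and 48.9 in WT with inducer, 57.3, 50.2 and 50.6 in NS1 untreated, and 63.4, 53.3 and 60.1 in NS1 with inducer. The pairs of NS1 libraries were higher with the inducer in 3 of 3 numbers, but the ranges of the 2 groups overlapped. In NS1 the change was 0.16 on the log2 scale (SE 0.10), with an adjusted p of 0.425 in the main fit and 0.148 with the within-line block.

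ARAF levels with the inducer did not overlap between the lines, with every NS1 library above every WT library. The difference was 0.29 on the log2 scale (SE 0.10) and missed the threshold in the main fit, with an adjusted p of 0.0541. Over the 7 alternatives that kept all libraries, this adjusted p ran from 0.032 to 0.19 and passed in 2 of 7. Without inducer the difference was 0.10 (SE 0.10, adjusted p 0.602), and the groups overlapped.

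BRAF, the RAF kinase that is most often mutated in human cancer, was measured at 15.8, 18.5 and 13.1 CPM in WT untreated and 13.9, 13 and 16.5 in WT with inducer. In NS1 it was 15.9, 11.7 and 11.3 CPM untreated and 16.9, 16.1 and 12.7 with inducer. The 4 groups overlapped throughout, and BRAF was called in none of the 5 comparisons in the main fit, nor with the within-line block over all libraries. Its log2 fold change with inducer in NS1 was 0.23 (SE 0.18, adjusted p 0.523), an interval of -0.12 to 0.58 at 2 standard errors. The pairs were higher in 3 of 3 numbers, by 0.09, 0.46 and 0.16 on the log2 scale. BRAF shares 1239 exonic bases with NDUFB2, a mitochondrial complex I gene with 302 to 865 counts per library that was lower in NS1 than in WT without inducer (log2 fold change -0.41, adjusted p 0.0389) and with it (-0.34, adjusted p 0.0489). BRAF itself held 118 to 337 counts, and how reads in the shared bases were assigned is not given in the sources used here.

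The count of ARAF was 2.47 to 4.73 times that of BRAF within a library. Its mean was 3.21 ± 0.83 in WT untreated, 3.38 ± 0.453 in WT with inducer, 4.12 ± 0.449 in NS1 untreated and 3.93 ± 0.731 in NS1 with inducer (SD, n = 3). These ratios overlapped between each line's untreated and treated groups.

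KSR1, the scaffold, was the 1 member called between the lines both with and without inducer in the main fit. Its level was 4.78, 4.05 and 4.06 CPM in WT untreated and 5.37, 4.82 and 5.13 in WT with inducer. In NS1 it was 7.53, 6.32 and 6.64 CPM untreated and 9.31, 8.38 and 5.81 with inducer. Every NS1 library was above every WT library, whether treated or not, and replicate 3 of NS1 with inducer was the NS1 library nearest to WT.

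Without inducer KSR1 was 0.66 higher in NS1 on the log2 scale (SE 0.18, a fold of 1.58, adjusted p 0.0326). It was the 1 member of 6 called, where 12.5% of all genes were called. Libraries of equal number, which were not taken to pair between lines, differed by 0.66, 0.64 and 0.71. With inducer KSR1 was 0.62 higher in NS1 (SE 0.18, a fold of 1.54, adjusted p 0.0199), and equal numbers differed by 0.79, 0.80 and 0.18. KSR1 and MAP2K2 were the 2 members of 6 called with inducer, where 28.2% of all genes were called. KSR1 rests on 42 to 179 counts per library, the lowest counts of the members. Both KSR1 calls were lost when library totals replaced TMM scaling (adjusted p 0.0574 and 0.0528). Leaving out 1 library of the groups compared ended the untreated call in 5 of 6 fits, all but that without replicate 1 of WT untreated (adjusted p up to 0.109). It ended the call with inducer in 4 of 6 fits, those without replicate 1 or 2 of NS1 or replicate 2 or 3 of WT (adjusted p up to 0.0925). The size stayed between 0.58 and 0.75 in the first set and between 0.47 and 0.80 in the second. Without a whole replicate number the untreated call was lost for number 2 (adjusted p 0.235) and 3 (0.167), and the call with inducer for number 1 (0.0719) and 2 (0.223).

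With the inducer, KSR1 did not pass the test in either line. In WT its groups did not overlap, as 1 of 6 members where 3.41% of all genes showed this, but the difference of 0.24 on the log2 scale (SE 0.19) had an adjusted p of 1. In NS1 it was 0.20 (SE 0.18, adjusted p 0.586), with 2 of 3 pairs higher. The interaction of genotype and inducer was -0.04 (SE 0.26, adjusted p 0.978), an interval of -0.55 to 0.47 at 2 standard errors. The genes AC015688.4 and AC015688.6, which share exonic bases with KSR1, held at most 25 and 19 counts in a library.

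The MEK genes had changes of opposite sign with the inducer in NS1 cells, and neither was called in the main fit. MAP2K1 encodes MEK1. Its level was 71, 117 and 115 CPM in WT untreated and 65.1, 113 and 111 in WT with inducer, so replicate 1 was far below the other WT libraries in both groups. In NS1 it was 98.3, 114 and 121 CPM untreated and 83.9, 93.1 and 84.9 with inducer. Every treated NS1 library was below every untreated one, and the pairs fell by 0.23, 0.29 and 0.51 on the log2 scale.

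The log2 fold change of MAP2K1 in NS1 was -0.35 (SE 0.21) and not called in the main fit, with an adjusted p of 0.393. With the within-line block it was -0.34 (SE 0.07, a fold of 0.789) and called, with an adjusted p of 0.00295. Over the alternatives that kept all libraries, its adjusted p ran from 0.00295 to 0.415. Without replicate 1 in any group the main fit gave -0.40 (SE 0.10) and an adjusted p of 0.0198, and the treated lines then also differed, with NS1 at -0.33 against WT (adjusted p 0.0197), which was -0.14 (SE 0.21, adjusted p 0.658) with all libraries. In the within-line fit the call was kept without replicate 1, 2 or 3, with adjusted p from 0.0107 to 0.0389. MAP2K1 shares 216 exonic bases with SNAPC5 and 432 with AC116913.1, and neither passed the test in the 5 comparisons.

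MAP2K2 encodes MEK2, the close relative of MEK1. Its level was 128, 113 and 160 CPM in WT untreated, 134, 129 and 132 in WT with inducer, 155, 155 and 157 in NS1 untreated, and 188, 171 and 207 in NS1 with inducer. The treated NS1 libraries were above all the others, and the WT untreated group had the widest spread. MAP2K1 and MAP2K2 were the 2 members of 6 whose groups did not overlap with inducer in NS1, where 27.2% of all genes showed this.

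With the inducer in NS1, the log2 fold change of MAP2K2 was 0.27 (SE 0.12, adjusted p 0.22) in the main fit. The within-line block gave 0.27 (SE 0.09, a fold of 1.21, adjusted p 0.0337) and called it. Over the alternatives that kept all libraries the adjusted p ran from 0.0337 to 0.376, and within the blocked fit the call was lost without replicate 1 (0.27, adjusted p 0.232). With inducer in both lines, MAP2K2 was 0.52 higher in NS1 than in WT (SE 0.12, a fold of 1.43, adjusted p 0.00718). That call held in 7 of 7 alternatives with all libraries kept and in 6 of 6 fits without 1 library of the groups compared. It was lost without replicate 2 in every group (0.58, adjusted p 0.0528) and without replicate 3 (0.45, adjusted p 0.0546). Without inducer the lines differed by 0.22 (SE 0.12, adjusted p 0.259). Without replicate 3 of WT untreated, its highest WT library, that difference was 0.37 and called (adjusted p 0.0479), and without replicate 2 of WT untreated it was 0.12.

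Within a library, the ratio of MAP2K2 to MAP2K1 counts needs no scaling of library size. It was chosen for description after the values had been seen. The ratio was 1.58, 1.36 and 1.3 in NS1 untreated and 2.24, 1.83 and 2.44 in NS1 with inducer, so the groups did not overlap. This was fixed by the levels above, where neither gene's groups overlapped and the genes moved apart, and it is no further support. In WT it was 1.8, 0.963 and 1.39 untreated and 2.06, 1.15 and 1.19 with inducer, and these overlapped. The ratio of MAPK3 to MAP2K1 counts was 0.496, 0.576 and 0.51 in NS1 untreated and 0.737, 0.878 and 0.961 with inducer, again without overlap. In WT that ratio was 0.913, 0.547 and 0.695 untreated and 1.01, 0.593 and 0.657 with inducer. The treated NS1 values thus lay within the range of the WT libraries.

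MAPK3 encodes ERK1, the kinase at the end of the cascade. It was at 64.8, 63.9 and 80 CPM in WT untreated, 65.6, 66.9 and 73.1 in WT with inducer, 48.8, 65.8 and 61.6 in NS1 untreated, and 61.8, 81.8 and 81.5 in NS1 with inducer. The ranges of the NS1 groups overlapped, because replicate 1 was the lowest library in both. Each pair was nonetheless higher with inducer, by 0.34, 0.31 and 0.40 on the log2 scale.

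In the main fit the log2 fold change of MAPK3 in NS1 was 0.35 (SE 0.14, adjusted p 0.174). It was 0.35 (SE 0.07, a fold of 1.28, adjusted p 0.00201) with the within-line block and 0.35 (SE 0.10, adjusted p 0.0423) with the number alone as block. Over the alternatives with all libraries kept its adjusted p ran from 0.00201 to 0.219. Within the blocked fit the size was 0.36 without replicate 1 and the call was lost there (adjusted p 0.062), while it was kept without replicate 2 or 3. The lines did not differ beyond their spread, with -0.24 untreated (SE 0.14, adjusted p 0.297) and 0.13 with inducer (SE 0.14, adjusted p 0.535).

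**Figure D2:**
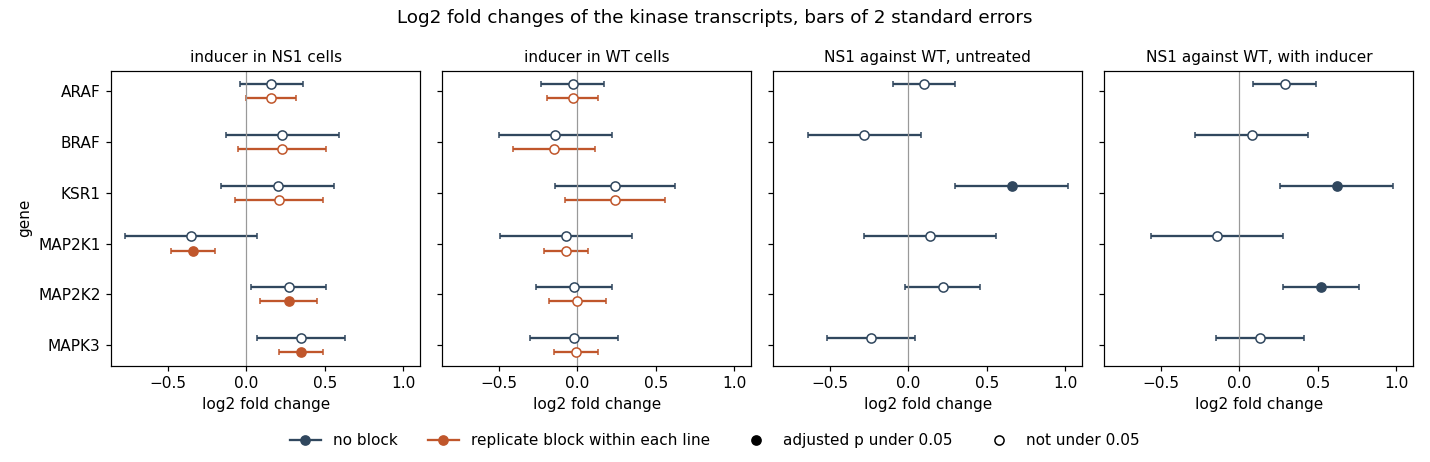
Log2 fold change (x axis) of each member (y axis) in 4 comparisons, with bars of 2 standard errors, for the fit without block (blue) and the fit with a replicate block within each line (orange, inducer comparisons only). Filled points have an adjusted p under 0.05: MAP2K1, MAP2K2 and MAPK3 in the blocked fit in NS1, and KSR1 and MAP2K2 between the lines.

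In WT cells the inducer called 0 of 6 members in the main fit and 0 with the within-line block, where 0% of all genes were called in each. No member had an unadjusted p under 0.05 there in the main fit, where 94 of the 17775 genes did, and DESeq2 called 0 members. The log2 fold changes ran from -0.14 for BRAF to 0.24 for KSR1. For MAPK3 the difference was -0.02, with an interval of -0.31 to 0.27 at 2 standard errors in the main fit and of -0.16 to 0.13 with the block. For MAP2K1 the blocked interval was -0.22 to 0.07.

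The interaction of genotype and inducer compares the inducer's effect on a member between the lines. The main fit called 0 of 6 members, where 0.0225% of all genes were called. An unadjusted p under 0.05 was found for 0 members and for 2196 of the 17775 genes, and DESeq2 called 0 members. The within-line block called 1 of 6, where 14% of all genes were called. That member was MAPK3, at 0.37 (SE 0.10, adjusted p 0.0241), and its adjusted p over the alternatives with all libraries kept ran up to 0.657. The call was lost in the blocked fit without replicate 1 (0.39, adjusted p 0.251) or replicate 2 (0.43, adjusted p 0.0669). The blocked interaction was -0.27 (SE 0.10, adjusted p 0.104) for MAP2K1 and 0.27 (SE 0.12, adjusted p 0.175) for MAP2K2, the latter falling to 0.08 without replicate 3. For BRAF it was 0.38 (SE 0.19, adjusted p 0.22). Without replicate 3 the blocked fit called BRAF as well as MAPK3 (0.59, SE 0.17, adjusted p 0.0135 for BRAF), and without replicate 2 the BRAF value was 0.09.

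Between the lines, groups did not overlap for 1 of 6 members without inducer, where 31% of all genes showed this, and for 3 of 6 with inducer, where 43.4% did. These were KSR1 in the first case and ARAF, KSR1 and MAP2K2 in the second, each higher in NS1. The members' median log2 fold change was 0.12 untreated and 0.21 with inducer, against 0.000 and -0.004 over all genes. Regardless of sign, the members' median was 0.234 untreated and 0.215 with inducer, against 0.238 and 0.314 over all genes. The NS1 treated libraries enter both this comparison and the inducer comparison in NS1.

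Across the 12 libraries, the members did not form 1 pattern. Log2 CPM of ARAF and MAP2K2 had the highest correlation of any pair (Pearson r 0.87, Spearman rho 0.87), followed by KSR1 with MAP2K2 (0.64 and 0.66) and ARAF with KSR1 (0.63 and 0.65). MAP2K1 and MAP2K2 had r -0.13, and MAP2K1 and MAPK3 had r 0.01. Among 9285 protein-coding genes, the most alike gene was LDOC1 for ARAF (r 0.95), GNA13 for BRAF (0.94), MAPRE2 for KSR1 (0.94), LAMB3 for MAP2K1 (0.97), NDUFS5 for MAP2K2 (0.97) and PNKD for MAPK3 (0.95). For MAP2K1 the rank correlation with LAMB3 was lower, at 0.80. The 12 points share groups, replicate numbers and scaling, so these values are descriptions and were not tested.

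Around the members, 81 other genes of the pathway and of neighbouring kinase cascades were listed in 6 groups, and 75 were tested. With the inducer in NS1 the main fit called 3 higher and 3 lower (8% of the 75), and the within-line block called 9 higher and 12 lower (28%), near the 25.9% of all genes called by that fit. Without replicate 1, the main fit called 6 and the blocked fit 5. Leaving out number 2 or number 3 took the main fit to 0, and the blocked fit to 13 and 21. The main fit called 1 to 3 of these genes when 1 NS1 library was left out, for each NS1 library except replicate 1 with inducer. In WT cells 0 of 75 were called by either fit.

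The ERK phosphatases DUSP4, DUSP5, DUSP6 and DUSP7, which remove phosphate from MAP kinases, fell in NS1 with inducer in the within-line fit. That is 4 of 4 tested, where 25.9% of all genes were called. DUSP4 went from 104 ± 4.98 to 57.6 ± 4.08 CPM and DUSP6 from 63.8 ± 6.65 to 35.9 ± 0.572 (SD, n = 3), and these were also called in the main fit. DUSP5 (-0.53, SE 0.10, adjusted p 0.000912) and DUSP7 (-0.41, SE 0.09, adjusted p 0.00438) were not called in the main fit. The fall in DUSP transcripts was larger than any change of a member in the same fit, at -0.86 (SE 0.08) for DUSP4 and -0.82 (SE 0.08) for DUSP6 on the log2 scale. The direction of DUSP4 and DUSP6 was known before the list was written and is no independent support.

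Among 20 regulators of RAF, 2 rose and 4 fell in the within-line fit with inducer in NS1, a share of 30% against 25.9% over all genes, and the main fit called 2. MRAS, a RAS-like GTPase that joins SHOC2 and a protein phosphatase 1 subunit in a complex that activates RAF, rose by 1.24 on the log2 scale (SE 0.17, adjusted p 7.82e-05), from 3.33 ± 1.33 CPM untreated to 7.8 ± 2.28 CPM treated. HSP90AA1, a chaperone that RAF kinases need for stability, fell from 1816 ± 192 to 1336 ± 180 CPM (-0.45, SE 0.07, adjusted p 0.000416). SFN and HSP90AB1 fell by 0.37 and 0.30 on the log2 scale. MRAS and HSP90AA1 were also called in the main fit.

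Of 12 scaffolds and anchors tested, 4 rose and 0 fell in the same fit, a share of 33.3% against 25.9% over all genes, and the main fit called 2. ARRB1, a beta-arrestin that also binds RAF and ERK, rose from 14.8 ± 1.45 to 23.4 ± 1.2 CPM (0.66, SE 0.11, adjusted p 0.000361), and LAMTOR1, part of the complex that anchors MEK1 at lysosomes, from 74.2 ± 0.296 to 95.9 ± 7.84 CPM (0.36, SE 0.08, adjusted p 0.00388). CNKSR3 and LAMTOR2 rose by 0.56 and 0.29. Among 8 kinases activated by ERK, 0 were called in the main fit, which called 6.15% of all genes. RPS6KA2 and MKNK2 rose and RPS6KA4 and RPS6KA5 fell with the within-line block (50%, against 25.9% of all genes). Of 14 other MAP kinases and MAP2 kinases, which belong to the JNK, p38 and further cascades, 0 were called in the main fit and 0 with the block. Of 17 MAP3 kinases outside the RAF family, 0 were called in the main fit. MAP3K1 rose and MAP3K3 and MAP3K20 fell with the block (17.6%, against 25.9% of all genes).

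Between the lines without inducer, 4 of the 75 were higher in NS1 and 6 lower (13.3%, against 12.5% of all genes). CNKSR3, a scaffold of the CNK family, was higher in NS1 by 1.97 on the log2 scale (SE 0.19, adjusted p 5.45e-05), from 1.28 ± 0.193 CPM in WT to 5.09 ± 0.491 in NS1. MRAS was higher by 1.77 (SE 0.37, adjusted p 0.00823), from 0.941 ± 0.249 to 3.33 ± 1.33 CPM. MAPK8, which encodes the kinase JNK1, was higher by 0.74 and MAPK11, a p38 kinase, lower by -0.77 as a log2 fold change. Leaving out number 1 gave 16 calls, number 2 gave 2 and number 3 gave 1. The fits without replicate 2 or 3 of NS1 untreated or replicate 3 of WT untreated gave 4 calls each, and that without replicate 2 of WT with inducer gave 6.

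With inducer in both lines, 14 of the 75 were higher in NS1 and 15 lower (38.7%, against 28.2% of all genes). CNKSR3 and MRAS were again higher, by 2.17 (SE 0.18) and 2.89 (SE 0.35) on the log2 scale. SHOC2, the partner of MRAS, was higher by 0.53 (SE 0.13, adjusted p 0.01), and the phosphatase subunits PPP1CB and PPP1CA differed by 0.63 (SE 0.15) and -0.45 (SE 0.12). DUSP6 was lower, at -1.18 on the log2 scale (SE 0.17, adjusted p 0.000333). Leaving out number 2 gave 8 calls, number 3 gave 11, and the single library of replicate 2 of NS1 with inducer gave 17. In the interaction the main fit called 0 of 75 and DESeq2 2, and the within-line block called 7 (9.33%, against 14% of all genes), with DUSP6 at -0.91 (SE 0.12), DUSP4 at -0.76 (SE 0.11) and ARRB1 at 0.72 (SE 0.15). That fit called 2 without replicate 1, 3 without replicate 2 and 14 without replicate 3.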

How the data were processed

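The authors deposited raw read counts in 1 table of genes by 12 libraries, and all 12 columns were used. Per the submitters' processing notes, STAR 2.7.3a, featureCounts 1.6.4 and hg38 were used. The annotation and the strand setting are not given in the sources used here. The position of each member in GRCh38 (GENCODE release 29) is as follows. ARAF (ENSG00000078061.13) is on chromosome X at 47561100 to 47571920, plus strand. BRAF (ENSG00000157764.13) is on chromosome 7 at 140719327 to 140924928, minus strand. KSR1 (ENSG00000141068.14) is on chromosome 17 at 27456470 to 27626438, plus strand. MAP2K1 (ENSG00000169032.9) is on chromosome 15 at 66386817 to 66492312, plus strand. MAP2K2 (ENSG00000126934.13) is on chromosome 19 at 4090321 to 4124129, minus strand. MAPK3 (ENSG00000102882.12) is on chromosome 16 at 30114105 to 30123506, minus strand. ARAF and MAPK3 carry another version number in that release.

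Symbols were found for 60306 identifiers. Counts were tested with edgeR 4.0.16 in R 4.3.3 (filterByExpr, TMM, glmQLFit, glmQLFTest, two-sided, 8 residual degrees of freedom). The 4 groups shared 1 fit. A call means an adjusted p (Benjamini-Hochberg, over the 17775 genes tested) under 0.05. The standard error is the log2 fold change divided by the square root of F. DESeq2 1.42.0, other scaling, other filters, replicate blocks and left-out libraries were alternatives. The edgeR fit without block was tested on simulated counts that held no replicate effect. The blocked fits and DESeq2 were not tested in this way. Deviations from group means of same-numbered libraries correlated at 0.71, 0.39 and 0.38 in NS1 and 0.75, 0.38 and 0.26 in WT. The replicate numbers in the labels were therefore taken to pair libraries within a line. Deviations within a group cancel and replicate 1 stood apart, so these values cannot show on their own that numbers 2 and 3 are paired. No 2 libraries of 1 group agreed within sampling noise. Precision is limited by the spread between libraries beyond counting error and by 3 libraries per group. MAP2K1 had the widest spread of the members within groups (pooled SD 0.317 on the log2 scale), with 1022 to 1614 counts per library. The reads carry no molecular identifiers.

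Named genes are the 6 members, up to 4 called genes per list and comparison with the lowest adjusted p, and the gene of at least 10 mean CPM most correlated with each member in log2 CPM (prior count 2). The members and lists were chosen with earlier results of these data known.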

Additional observations from a re-analysis of the deposited data

Results flagged for a closer look

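For MAPK3 the interaction of genotype and inducer was called in 1 fit that kept all libraries. In that fit each pair of same-numbered libraries of a line had its own block, and 14% of all genes were called. The interaction was 0.37 on the log2 scale (SE 0.10, edgeR adjusted p 0.0241), with the pairs of NS1 libraries at 0.34, 0.31 and 0.40 and those of WT libraries at 0.02, 0.07 and -0.13. The fit without block gave 0.37 (SE 0.20, adjusted p 0.501). The blocked call was lost without replicate 1 (edgeR adjusted p 0.251) or replicate 2 (0.0669), and kept without replicate 3 (0.0499).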

How the results depend on the processing

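Of 222 values of single members under alternatives that kept all libraries, 213 kept their direction and side of the threshold, 7 gained a call, 2 lost one and 0 reversed; of 504 with a library or replicate number left out, 448 kept both, 14 gained a call, 15 lost one and 27 reversed. The number of members called with inducer in NS1 was 0 in the main fit, 1 with the replicate block, 3 with the replicate block within each line, and 0 to 3 with a library or number left out. Between untreated lines it was 1, with 0 for library totals and 0 to 1 with a library or number left out. Between treated lines it was 2, with 1 for library totals and 0 to 3 with a library or number left out. It was 3 there with a filter of at least 10 counts in every library, and 3 with the replicate block. In the interaction it was 0, with 1 for the block within each line and 0 to 2 with a library or number left out. Reversals came only from left-out libraries or numbers, of values that were not called. Their log2 fold changes with inducer in WT ran from -0.109 to 0.0368 for ARAF, -0.348 to 0.0615 for BRAF, -0.270 to 0.153 for MAP2K1, -0.126 to 0.133 for MAP2K2 and -0.0773 to 0.0902 for MAPK3. They ran from -0.0640 to 0.259 for MAP2K1 between untreated lines, from -0.0227 to 0.305 for BRAF and from -0.363 to 0.002 for MAP2K1 between treated lines, and from -0.193 to 0.158 for KSR1 in the interaction. With the replicate block within each line and a number left out, the reversed values were 0.0208 for ARAF, 0.0320 for BRAF, 0.133 for MAP2K2 and 0.0405 for MAPK3 in WT, and 0.156 for KSR1 in the interaction. Between lines, same-numbered libraries correlated at only 0.14, 0.07 and 0.19 untreated and 0.15, 0.12 and 0.01 treated, so the numbers were not taken to pair them. There the replicate block called 1 and 3 members (ARAF added, edgeR adjusted p 0.032). It called 21 and 36 of the 75 listed genes, against 10 and 29 in the main fit. Over all 17775 genes tested it called 3908 and 6670, against 2222 and 5007. Shares of all genes called in the fits with a library or number left out are not given here. The listed genes called with inducer in NS1 were 6, and 3 when only the groups compared entered the fit. The cause of these changes was not tested. KSR1, with 42 to 179 counts, is the member most limited by depth. The replicate block within each line with a number left out and the alternatives for the listed genes were chosen after seeing the data.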
